A study of Caenorhabditis elegans with 3 samples.

Results

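The genes described here are the histone-modifying and chromatin repressor genes of the nematode Caenorhabditis elegans. They were taken by name from the array's gene annotation: every single symbol that begins with set-, met-, jmjd-, hda-, hpl-, mes-, mys- or spr- and a digit, together with utx-1, rbr-2, sir-2.1, lsd-1, mep-1, let-418, chd-3, lin-59, lin-61 and mrg-1. The rule took 66 of 20000 rows, which stand for 64 genes of 19293 genes tested. All 64 had a value on each of the 3 arrays, and no filter on low values was applied. One of them, mes-1, matches by name only: it encodes a membrane protein related to receptor tyrosine kinases that acts in the division of germline precursors, and it is no histone modifier.

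Whole adult hermaphrodites were compared with a wild-type mixed reference on 3 two-colour DNA arrays. The adult channel held mRNA of a preparation marked TP12 and "adult w/ emb 3", numbered 1 to 3, and the other channel held the reference mRNA, whose composition the labels do not describe. The words "adult w/ emb" are read here as adults with embryos, so RNA of embryos may be part of the adult channel. The source label of the adult channel names no strain or genotype. The labels do not explain TP12 or the number after "emb" and give no age. They leave unsaid whether each preparation was a culture of its own, so the p-values measure a spread between arrays that may be technical. Each value is the log2 ratio of the 2 channels of an array as the authors deposited it, centred near 0, so that 1 log2 unit is a doubling relative to the centre of the array.

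No source says which channel is the numerator. Adults over reference is taken as the likely direction, from the channel order in the labels and from marker lists. Of 10 oocyte and eggshell markers 9 were higher under that reading (median log2 ratio 1.44), and of 10 moulting markers 5 were lower and none higher (median -0.49). "Higher" and "lower" rest on this reading, and every sign would turn if the ratio ran the other way. Sperm markers had 5 of 10 lower (median -0.61), neuronal markers 5 of 9 lower (-1.26), body wall muscle markers 2 of 9 lower (0.18) and male markers 1 of 7 lower (-0.12), and none of these lists had a higher member. Of 7 yolk and intestine markers 2 were higher and 1 lower (0.24), and of 9 markers of the zygotic embryo 1 was lower (-0.16). Of all genes tested 14.8% were higher and 13.7% lower, and no direction is read from the yolk and intestine, muscle, male and embryo lists. Replicate 1 stood apart from the others: over all genes it correlated with replicates 2 and 3 at 0.686 and 0.679, while replicates 2 and 3 correlated at 0.895. The arrays held 19832 to 19904 values each, and their number limits the precision.

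DNA in the nucleus is wound around histones, whose tails carry methyl and acetyl groups. SET-domain enzymes add methyl groups to lysines and demethylases remove them, acetyltransferases and deacetylases do the same for acetyl groups, and reader proteins such as HP1 bind the marked tails. In C. elegans several of these proteins are known for their work in the germ line, where MES-4 and the MES-2, MES-3 and MES-6 complex set which chromatin is active, and others, the synMuv B proteins among them, are known to keep germline genes silent in somatic cells.

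Transcripts of 32 of the 64 genes were higher in the adults. In limma's test of each gene against 0, adjusted over all genes tested, 1 further gene was lower and 31 did not pass. The higher genes were 50% of the 64 and the lower gene 1.56%, while of all genes tested 14.8% were higher, 13.7% lower and 28.5% either. The median log2 ratio was 0.51 over the 64 genes and 0.02 over all genes tested, and the medians on the arrays of replicates 1, 2 and 3 were 0.32, 0.51 and 0.45. Of the genes, 44 were above 0 on all 3 arrays and 5 below 0 on all 3. Among all 19293 genes tested these counts were 5813 and 5257. RNA was taken from whole animals, so more cells of a type and more RNA per cell cannot be told apart. Nearly all of the oocyte and eggshell markers moved in the same direction, as given above, and their part in these ratios was not tested.

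The changes were of modest size. Of the 32 higher genes, 5 had a mean log2 ratio of at least 1, 25 lay between 0.5 and 1 and 2 lay just under 0.5. The range was 0.48 for set-14 to 1.42 for mes-4, while the single lower gene, set-30, stood at -0.69. The upper quartile of all genes lay at 0.29 and 39 of the 64 were above it. The lower quartile lay at -0.26 and 3 of the 64 were below it, namely set-30, set-18 and lin-59. Leaving out the array of replicate 2 left 20 genes higher and 0 lower, beside 9.28% and 8.72% of all genes. Leaving out that of replicate 3 left 22 and 0, beside 9.83% and 9.98%. Leaving out that of replicate 1, the array that stood apart, gave 39 and 3, beside 22.2% and 20.1%. Of the 33 genes that passed, 17 also did so under every alternative processing except the one that drops the moderation of the variance. Without moderation no gene of the whole table passed. There 27 of the 64 had an unadjusted p under 0.05, and the share of all genes was not counted.

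**Figure D1:**
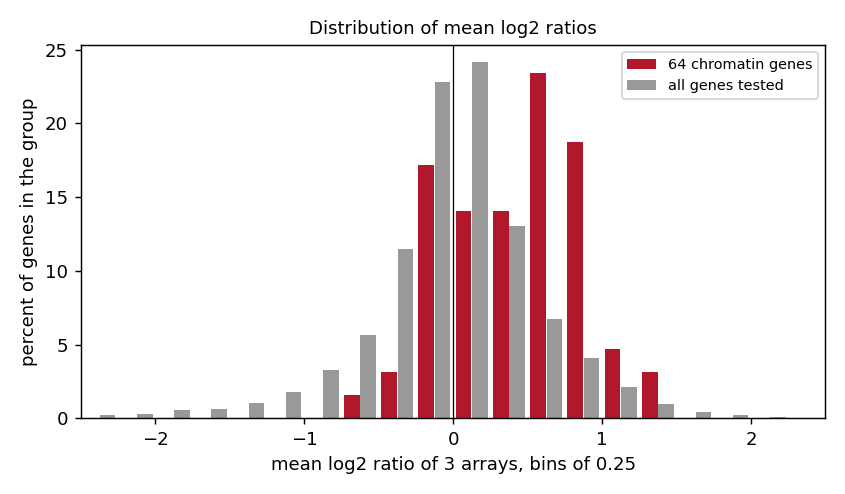
Share of genes (vertical axis, percent) in each bin of 0.25 of the mean log2 ratio of 3 arrays (horizontal axis), for the 64 chromatin genes in red and all 19293 genes tested in grey; the axis is drawn from -2.5 to 2.5. The fullest bin of the chromatin genes runs from 0.5 to 0.75 and holds 23.4% of them, against 6.73% of all genes.

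Histone H3 lysine 4 methylation marks active promoters and enhancers, and 3 of the 4 genes grouped under it here were higher. The groups were set with earlier results known, and set-30, lower at -0.69, was counted among the remaining SET-domain genes. The gene set-2, which encodes the SET1 enzyme of the COMPASS complex, had log2 ratios of 1.89, 1.23 and 1.02 on the arrays of replicates 1, 2 and 3, a mean of 1.38 ± 0.45 (SD, n = 3) and an adjusted p of 0.0017. The gene set-16, an MLL-type methyltransferase, had 0.99, 1.2 and 1.23 (mean 1.14 ± 0.13, adjusted p = 0.00107). The gene set-17, whose product is related to mammalian PRDM9, had 1.1, 0.74 and 0.85 (mean 0.90 ± 0.18, adjusted p = 0.00327). All 3 genes were above 0.7 on every array. In the likely direction the ratio was 2.6-fold for set-2 and 2.21-fold for set-16, relative to the array centre. The fourth, lin-59, an ASH1-type gene, had 0.07, -0.31 and -0.54 and did not pass (mean -0.26 ± 0.31, adjusted p = 0.289). It stood below 0 on 2 of the arrays. Without replicate 1 it passed as lower at -0.42, as it did with blocks of rows centred.

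Methylation of H3 lysine 9 marks heterochromatin, and 3 of the 5 genes grouped under it here were higher. The gene met-2, a SETDB1-type enzyme that makes mono- and dimethylated lysine 9, had 1.18, 0.83 and 0.56 (mean 0.86 ± 0.31, adjusted p = 0.00628). The gene set-25, which makes the trimethylated form, had 0.80, 1.04 and 0.43 (mean 0.76 ± 0.31, adjusted p = 0.0104). The gene set-32, known from heritable silencing by small RNAs, had 0.30, 1.11 and 0.75 (mean 0.72 ± 0.40, adjusted p = 0.0196). Each of the 3 was above 0 on every array, with set-32 lowest in replicate 1. Without replicate 2 neither set-25 nor set-32 passed. The SET-domain genes set-11 and set-6, of the same group, stood at 0.07 ± 0.17 and -0.02 ± 0.29 and did not pass. The lowest of the group, set-6, had 0.32, -0.21 and -0.17, and both genes had arrays on both sides of 0.

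Of the MES genes, named for the maternal-effect sterility of their mutants, mes-4 and mes-6 were higher and mes-3 and mes-2 did not pass. The gene mes-4, which encodes an H3 lysine 36 methyltransferase that carries the memory of germline expression between generations, had the highest mean of all 64 genes, with 1.28, 1.53 and 1.44 (mean 1.42 ± 0.13, adjusted p = 0.000458). Its ratio was 2.67-fold in the likely direction. The 3 genes of the PRC2 complex, which methylates H3 lysine 27, had smaller means. Of these, mes-6, the EED-type subunit, had 0.74, 0.73 and 0.45 and passed (mean 0.64 ± 0.17, adjusted p = 0.0128), though not without replicate 2. The subunit gene mes-3 had -0.19, 0.47 and 0.17 (mean 0.15 ± 0.33). The catalytic subunit gene mes-2 had -0.32, -0.02 and 0.15 (mean -0.06 ± 0.24, adjusted p = 0.805). The values of mes-6 were above 0 on every array and those of mes-3 and mes-2 on both sides of it, and the difference between subunits was not tested. The gene mes-1, which matches by name only, had 0.45, 0.86 and 0.29 (mean 0.53 ± 0.29, adjusted p = 0.0395), and did not pass without replicate 2 or without replicate 3.

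A further pair of genes of the lysine 36 pathway varied widely between arrays. The gene mrg-1, which encodes a chromodomain protein of the MRG15 family that binds this mark and is required for primordial germ cells, had 0.27, 0.90 and 1.32 (mean 0.83 ± 0.53, adjusted p = 0.0185) and did not pass without replicate 3. The gene met-1, a SETD2-type enzyme, had -0.14, 1.45 and 0.71, and with the highest SD of the 64 genes it did not pass (mean 0.67 ± 0.80, adjusted p = 0.103). In both genes replicate 1 was the lowest array, and without it met-1 passed at 1.08. With blocks of rows centred met-1 passed too. The gene set-12 stood at 0.17 ± 0.17. The gene set-18, an enzyme of the SMYD type, had -0.50, -0.61 and -0.23 (mean -0.45 ± 0.20, adjusted p = 0.0538). It was below 0 on all 3 arrays. It passed as lower without replicate 1, with each array centred on its median, with blocks of rows centred and with array weights.

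Methylation of H4 lysine 20 is known in this animal for its part in X chromosome dosage compensation, and both of its genes were higher. The gene set-4, which makes the di- and trimethylated forms, had 0.39, 0.49 and 0.96 (mean 0.62 ± 0.30, adjusted p = 0.024). The gene set-1, which makes the monomethylated form, had 0.69, 0.29 and 0.60 (mean 0.52 ± 0.21, adjusted p = 0.0321). Neither passed without replicate 3, and set-1 did not pass without replicate 2 or with blocks of rows centred either.

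**Figure D2:**
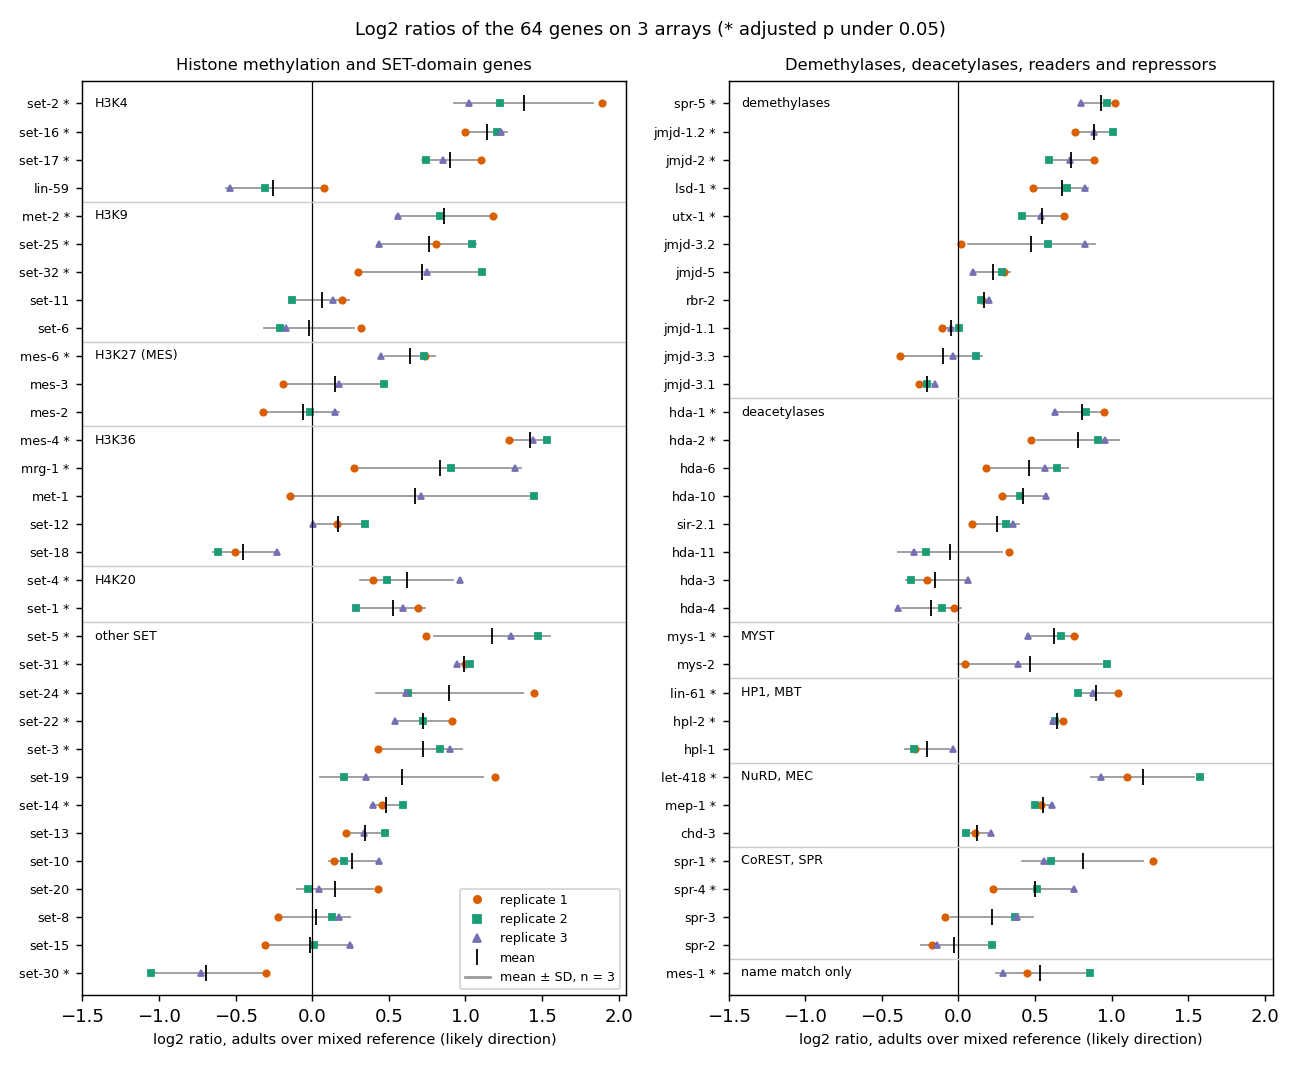
Log2 ratio (horizontal axis, adults over mixed reference in the likely direction) of each of the 64 genes (vertical axis), grouped by role and ordered by mean within a role, with 1 point per array, a bar for the mean and a grey line for mean ± SD (n = 3). Points lie mostly right of 0, from -0.69 for set-30 to 1.42 for mes-4 by their means.

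The remaining SET-domain genes, most of them with no substrate settled, held 6 higher members of 13, 1 lower and 6 that did not pass. The gene set-5 had 0.75, 1.48 and 1.3 (mean 1.17 ± 0.38, adjusted p = 0.00235), and set-31 had 1.00, 1.03 and 0.95 (mean 0.99 ± 0.04, adjusted p = 0.00169). The gene set-24 had 1.45, 0.62 and 0.61 (mean 0.89 ± 0.48, adjusted p = 0.0113). These 3 contrast in spread: set-31 was nearly level over the arrays, set-5 was lowest in replicate 1 and set-24 highest there. The gene set-22 had 0.91, 0.72 and 0.54 (mean 0.72 ± 0.18). The gene set-3 had 0.43, 0.83 and 0.90 (mean 0.72 ± 0.26), and set-14 had 0.46, 0.59 and 0.40 (mean 0.48 ± 0.10). All 3 passed, at adjusted p of 0.00802, 0.0106 and 0.0336, and set-3 and set-14 did not pass without replicate 2 or without replicate 3.

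The 1 lower gene of the whole list was set-30, which encodes a SET protein of the SMYD type. It had -0.30, -1.05 and -0.72, a mean of -0.69 ± 0.37 (SD, n = 3) and an adjusted p of 0.0199. It was below 0 on every array and nearest to 0 in replicate 1, and it did not pass without replicate 2 or without replicate 3. The other 6 genes of this group, set-19, set-13, set-10, set-20, set-8 and set-15, ranged from -0.02 for set-15 to 0.58 for set-19. The gene set-19 had 1.19, 0.21 and 0.35, so that 1 array carried its mean, and it passed as higher without replicate 2, without replicate 3 and with blocks of rows centred. Without replicate 1 set-13 passed as higher at 0.41. The lowest of the 6, set-15, had -0.31, 0.01 and 0.25. In the RefSeq gene table of assembly WBcel235 set-19 and set-20 are direct neighbours, and set-20 stood at 0.15 ± 0.25, with its highest array also replicate 1.

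Of 11 demethylase genes, 5 were higher and none lower. The gene spr-5, the LSD1-type enzyme that removes H3 lysine 4 methylation and is required for germline immortality, had 1.02, 0.97 and 0.80 (mean 0.93 ± 0.12, adjusted p = 0.00239). It was measured on 2 rows of the array, with means of 1.1 and 0.76, which differed most on the array of replicate 1 at 1.54 and 0.50. Its relative lsd-1 had 0.49, 0.71 and 0.83 (mean 0.67 ± 0.17, adjusted p = 0.0105). Both LSD1-type genes were thus higher and above 0 on every array, though lsd-1 did not pass without replicate 2 or without replicate 3.

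Among the Jumonji-type demethylases, jmjd-1.2, a PHF8-type enzyme, had 0.76, 1.01 and 0.89 (mean 0.89 ± 0.12, adjusted p = 0.00291). The gene jmjd-2, a KDM4-type enzyme acting on lysines 9 and 36, had 0.89, 0.59 and 0.73 (mean 0.74 ± 0.15, adjusted p = 0.00679). The lysine 27 demethylase gene utx-1 had 0.69, 0.41 and 0.54 (mean 0.55 ± 0.14, adjusted p = 0.0221). All 3 were above 0.4 on each array, and utx-1 did not pass without replicate 2 or without replicate 3. The other lysine 27 demethylase genes did not pass: jmjd-3.2 stood at 0.48 ± 0.42, jmjd-3.3 at -0.10 ± 0.25 and jmjd-3.1 at -0.20 ± 0.05. Without replicate 1 jmjd-3.2 passed as higher at 0.71, as it did with blocks of rows centred. The gene jmjd-3.1 lies next to utx-1 in the RefSeq table and was the lowest demethylase gene, with -0.26, -0.20 and -0.16. The KDM5-type gene rbr-2, which removes lysine 4 methylation, stood at 0.17 ± 0.03, jmjd-5 at 0.22 ± 0.11 and jmjd-1.1 at -0.05 ± 0.06. With an SD of 0.03, rbr-2 was the most even of the 64 genes over the arrays and did not pass (adjusted p = 0.414).

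Among histone deacetylases the class I genes hda-1 and hda-2 were higher and no gene was lower. The gene hda-1, the catalytic subunit of the NuRD complex, had 0.95, 0.83 and 0.63 (mean 0.80 ± 0.16, adjusted p = 0.00485), and hda-2 had 0.47, 0.91 and 0.96 (mean 0.78 ± 0.27, adjusted p = 0.00792). The third class I gene, hda-3, stood at -0.15 ± 0.19, and its 2 rows had means of -0.34 and 0.04. Class I genes are alike in sequence, so a probe may also take up transcripts of a relative. The genes hda-6 and hda-10 had 0.18, 0.65 and 0.57, and 0.28, 0.40 and 0.57, above 0 on all arrays but short of the threshold (adjusted p of 0.0566 and 0.0599). Both passed without replicate 1 and with blocks of rows centred. The sirtuin gene sir-2.1, studied for its part in stress and lifespan, stood at 0.25 ± 0.14, hda-11 at -0.06 ± 0.34 and hda-4, a class II gene known from muscle and neurons, at -0.18 ± 0.19. The lowest of the 8, hda-4, had -0.03, -0.11 and -0.39. The MYST acetyltransferase gene mys-1, the TIP60 of the worm, had 0.76, 0.67 and 0.45 and passed (mean 0.63 ± 0.16, adjusted p = 0.0134), though not without replicate 2. The MOF-type gene mys-2 had 0.04, 0.97 and 0.39 and did not pass (mean 0.47 ± 0.47, adjusted p = 0.111), and it passed without replicate 1.

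Among readers and repressors, lin-61, an MBT-repeat protein of the synMuv B class that binds methylated lysine 9, had 1.04, 0.78 and 0.88 (mean 0.90 ± 0.13, adjusted p = 0.0028). The HP1 gene hpl-2 had 0.68, 0.63 and 0.62 (mean 0.64 ± 0.04, adjusted p = 0.00985). The other HP1 gene, hpl-1, had -0.28, -0.29 and -0.04 and did not pass (mean -0.20 ± 0.14, adjusted p = 0.337). The pair lay on opposite sides of 0 on all 3 arrays. The call of hpl-2 was lost without replicate 2 and without replicate 3, with values of 0.65 and 0.66 there.

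Of the Mi-2 remodellers 1 passed. The gene let-418, an ATPase of the NuRD and MEC complexes that represses germline genes in somatic cells, had 1.1, 1.58 and 0.93 (mean 1.2 ± 0.34, adjusted p = 0.00178), or 2.3-fold. Its relative chd-3 had 0.11, 0.05 and 0.21 (mean 0.12 ± 0.08, adjusted p = 0.559). The zinc finger gene mep-1, whose product joins LET-418 in the MEC complex, had 0.54, 0.50 and 0.61 (mean 0.55 ± 0.06, adjusted p = 0.0187) and did not pass without replicate 2 or without replicate 3. All 3 genes were above 0 on every array, with chd-3 the nearest to it.

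The spr genes, spr-5 among them, were found as suppressors of presenilin mutants. The gene spr-1, the CoREST of the worm and a partner of SPR-5, had 1.27, 0.60 and 0.56 (mean 0.81 ± 0.40, adjusted p = 0.0116). The zinc finger gene spr-4 had 0.23, 0.51 and 0.76 (mean 0.50 ± 0.27, adjusted p = 0.0461). The other zinc finger gene, spr-3, stood at 0.22 ± 0.27 and passed as higher without replicate 1, at 0.37. The last, spr-2, which is related to a mammalian nucleosome assembly factor, had -0.17, 0.22 and -0.14 (mean -0.03 ± 0.22). Thus spr-1 and spr-4 were above 0 on every array. The call of spr-4 is the closest to the threshold in the list: it was lost without replicate 2, without replicate 3, with each array centred on its median, and when genes with values on 2 arrays were added.

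Within arrays 8 pairs of genes were compared, alike by family, by name (mes-4 and mes-2) or by position (set-19 and set-20). They were chosen with their values known, and the gene with the higher mean was named first. The difference in log2 ratio was 0.84 ± 0.17 for hpl-2 over hpl-1, 1.08 ± 0.41 for let-418 over chd-3 and 0.95 ± 0.34 for hda-1 over hda-3 (SD, n = 3). It was 0.93 ± 0.07 for jmjd-1.2 over jmjd-1.1, 0.75 ± 0.17 for utx-1 over jmjd-3.1, 1.48 ± 0.17 for mes-4 over mes-2 and 0.44 ± 0.28 for set-19 over set-20. In each of these 7 pairs the first gene was the higher on all 3 arrays. For spr-5 over lsd-1 the difference was 0.25 ± 0.28, positive on 2 arrays and -0.03 on that of replicate 3. In exact sign-flip tests, two-sided, the 7 pairs had p = 0.25, the smallest that 3 arrays can give, and spr-5 with lsd-1 had p = 0.5. Adjusted over the 8 pairs these were 0.286 and 0.5, so no difference could pass in this design.

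**Figure D3:**
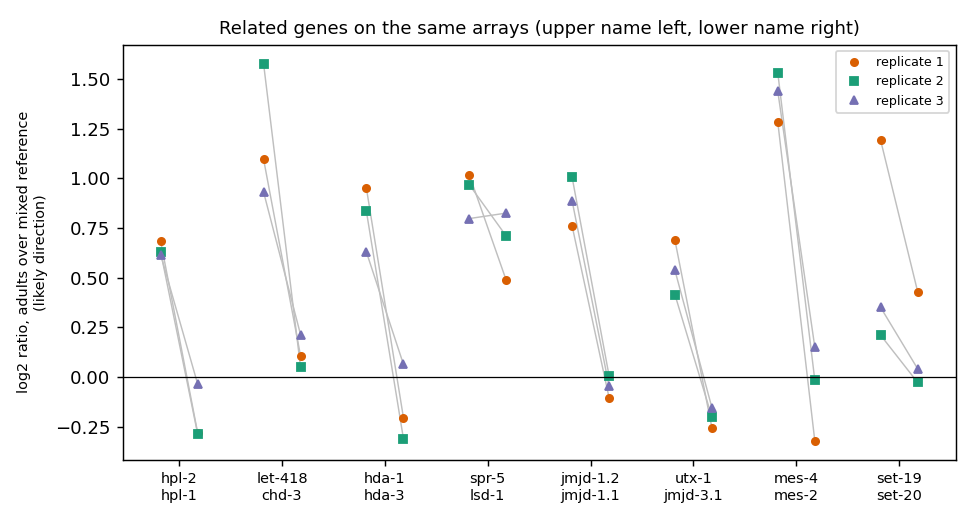
Log2 ratio (vertical axis, adults over mixed reference in the likely direction) of 8 pairs of genes alike by family, name or position. The gene with the higher mean is at left and the other at right, with a grey line joining the values of 1 array. The lines fall on every array in 7 pairs, from 0.44 on average for set-19 and set-20 to 1.48 for mes-4 and mes-2, and cross for spr-5 and lsd-1.

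Genes whose products work with these proteins, but which the name rule does not take, were also more often higher than lower. Of 66 such genes in a list of complex partners, 54 were measured on all 3 arrays, of which 26 were higher, 1 lower and 27 did not pass, with a median of 0.52. The list's shares stand beside the same 14.8% and 13.7% of all genes. The zinc finger synMuv B gene lin-36 had 1.02, 1.46 and 1.19 (mean 1.22 ± 0.22, adjusted p = 0.00104). It was 1 of 2 genes of its group, and the other stood at -0.23 and did not pass. The ISWI remodeller gene isw-1 had 0.88, 1.48 and 1.25 (mean 1.2 ± 0.31, adjusted p = 0.00159). The means of lin-36 and isw-1 were the highest of the list.

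The genes around MET-2 and lysine 9 methylation were mostly higher, with 4 of 5 past the threshold and a median of 0.96. The gene arle-14, a MET-2 cofactor, had 1.05, 0.98 and 1.3 (mean 1.11 ± 0.17, adjusted p = 0.00136). The chromodomain gene cec-3, a reader of this mark, had 0.96, 1.01 and 1.00 (mean 0.99 ± 0.02, adjusted p = 0.00168). Both were close to or above 1 on every array. Of 8 COMPASS partners 4 were higher and 4 did not pass, and the core subunit gene wdr-5.1 had the smallest p, at 0.76 ± 0.09. Of 5 NuRD and MEC partners 3 were higher and 2 did not pass, and rba-1, which encodes an RbAp-type histone-binding protein, had the smallest p, at 1.02 ± 0.31.

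The other partner groups held fewer genes. The RuvB-type helicase gene ruvb-1 stood at 0.95 ± 0.20 among 5 TIP60 partners, of which 2 were higher. The demethylase gene jhdm-1 stood at 1.00 ± 0.30, with 2 of its 3 genes higher, and the PHD finger gene athp-1 at 0.87 ± 0.26, with both measured genes of its group higher. Of 5 Polycomb-like genes only mig-32 passed, a gene of the PRC1 type, at 1.03, 1.00 and 0.80 (mean 0.94 ± 0.12, adjusted p = 0.00227). The arginine methyltransferase gene prmt-5 stood at 0.69 ± 0.13 as the 1 of 5 in its group to pass, and 4 of 7 remodeller genes were higher. Of 5 further acetyltransferase genes ada-2, a transcriptional adaptor, stood at 0.70 ± 0.16 and was higher with 1 other, though not without replicate 2. The CBP-related gene cbp-3 was the lower gene of the list, with -0.28, -1.17 and -1.16 (mean -0.87 ± 0.51, adjusted p = 0.0145). Neither of 2 mitochondrial-type sirtuin genes passed, and sir-2.2 stood at -0.34 ± 0.15.

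**Figure D4:**
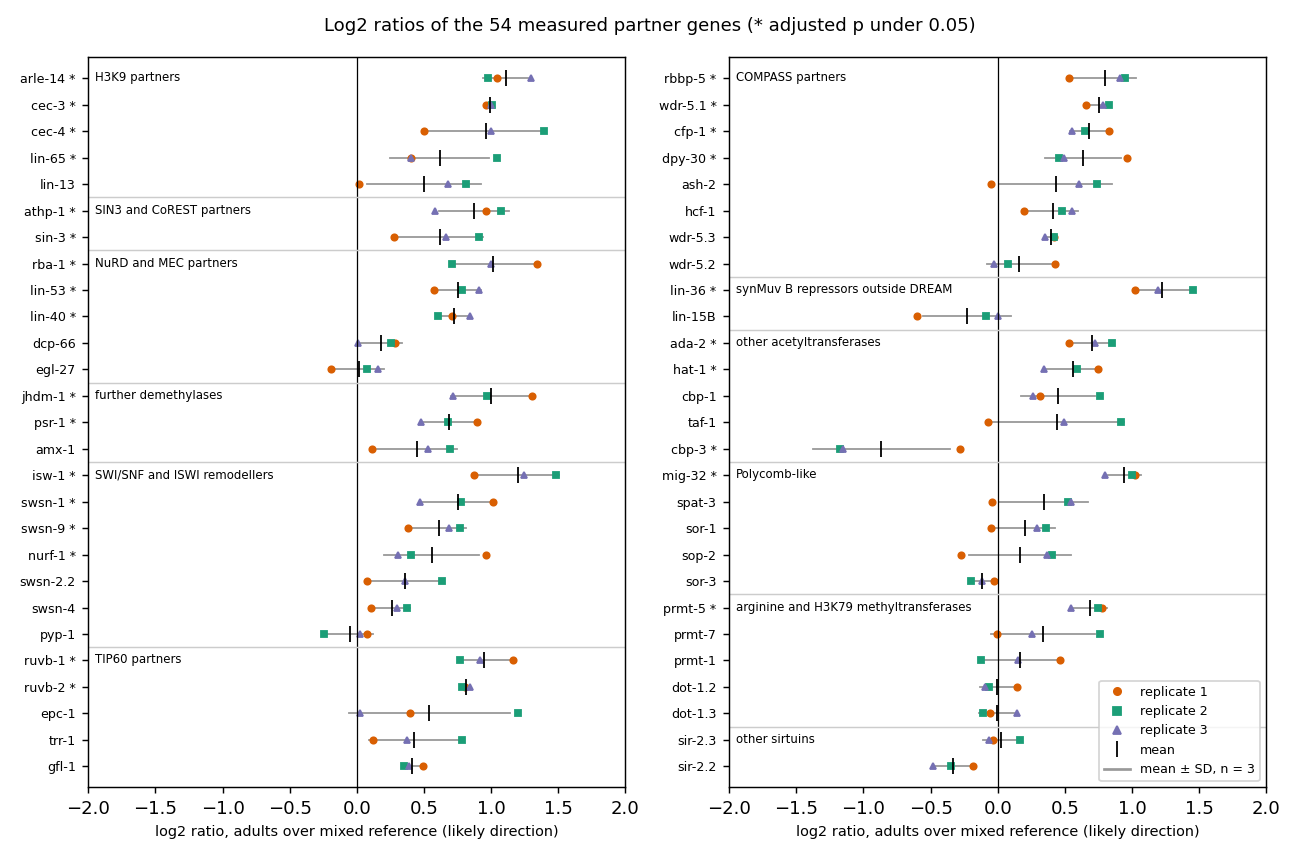
Log2 ratio (horizontal axis, adults over mixed reference in the likely direction) of the 54 measured partner genes (vertical axis), grouped by complex, with 1 point per array, a bar for the mean and a grey line for mean ± SD (n = 3). Means run from -0.87 for cbp-3 to 1.22 for lin-36.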

How the data were processed

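The authors deposited log2 ratios of the 2 channels of each array, 1 per row, centred near 0. The base was inferred: raised from base 2, the values fall on a grid of 0.001. Scanner, background correction, spot filter, normalisation, dyes and direction were not found in any label or header, and compression of ratios would understate changes. Gene symbols came from the platform annotation of 2007 and RefSeq names (assembly WBcel235). Rows of a symbol were averaged on each array, and genes with values on all 3 arrays were tested against 0 in limma 3.58.1 (R 4.3.3; lmFit, eBayes), two-sided, with Benjamini-Hochberg adjustment over 19293 genes and a threshold of 0.05. Without moderation 3 arrays leave 2 residual degrees of freedom, so calls rest on the variance shared across genes (prior SD 0.27). The fit was tested on simulated data. The genes, role groups and lists were chosen with earlier results of these data known. Values on each array are given for genes that passed and for the lowest and highest of each role group. Of the partner list the 5 with the smallest p, the highest, the lowest and the first of each group by p are named.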

Additional observations from a re-analysis of the deposited data

How the results depend on the processing

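No paired analysis was possible because the arrays form 1 group. No gene named here that passed changed sign under any alternative. Leaving out 1 array at a time gave 20 to 39 higher and 0 to 3 lower of the 64 genes, and 20 to 39 higher and 1 to 2 lower of the partner genes, while 9.28% to 22.2% of all genes were higher. Without replicate 2, 19 of the 20 higher genes were among the 32, and without replicate 3, 21 of 22. With each array centred on its median 31 of the 64 were higher and 2 lower, beside 14% and 14.1% of all genes. With each of 32 blocks of rows centred 36 were higher and 3 lower, beside 16.2% and 17.2%. With array weights, which gave replicate 1 a weight of 0.282, 42 of the 64 were higher and 4 lower, beside 25.3% and 22.9% of all genes. Of the partner genes 41 were higher and 2 lower there. Under these weights 13 of the 64 passed that did not pass in the test above. As lower these were set-18, lin-59 and hda-4. As higher they were met-1, set-19, set-13, set-10, hda-6, hda-10, sir-2.1, jmjd-3.2, mys-2 and spr-3. Without moderation of the variance 0 genes passed in limma in either direction. Of the 64, 27 had an unadjusted p under 0.05 there, with no share of all genes to set beside them. The cause of these shifts was not tested. The median of the 64 stayed between 0.43 and 0.56. Scaling the arrays, using 1 row per gene and the trend and robust options changed no call of the 64. Spot intensities were not used here, so dim spots could not be set apart.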
